A study of Mus musculus with 9 samples.

Results

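Dendritic cells sorted from the mouse thymus as CD301b were compared with those sorted as SIRPa, across all genes with enough counts. The comparison used 6 of the 9 libraries of the series, replicates 1, 3 and 4 of CD301b and replicates 1 to 3 of SIRPa, chosen by the population named in their titles. Of 55278 genes, 14531 passed edgeR's filter on low counts, with a minimum count of 10, and were tested. Both populations came from C57BL/6 mice 8 weeks of age, and the labels name no treatment, transgene or deletion. Thymi had been digested with collagenase D and stained before the sort, and RNA was measured by stranded total RNA sequencing. The source field of the labels speaks of thymocytes while the cell type field gives thymic dendritic cells, and neither the gates nor the cell numbers are given in the sources used here. The design text counts 3 mice, while the titles of CD301b run to 4, and nothing says whether animals were pooled or shared between populations. The p-values therefore rest on the scatter of these 6 libraries alone, which may be technical. The other 3 libraries, of XCR1 dendritic cells, are given for their levels only.

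CD301b is a C-type lectin, a receptor that binds sugars on proteins and microbes, and is encoded by Mgl2. SIRPα marks type 2 conventional dendritic cells (cDC2) and also macrophages, and XCR1 marks type 1 conventional dendritic cells (cDC1). In the thymus, dendritic cells present self-antigen to developing T cells and take part in clonal deletion and in the selection of regulatory T cells. The series title concerns type 2 cytokines, which are IL-4, IL-13 and related factors that act through the transcription factor STAT6.

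Libraries of the comparison held 20246092 to 25438864 counts, and 16919 to 18779 genes had at least 1 count. Levels are CPM, the count of a gene scaled to a fixed library total, on TMM-scaled library sizes, and differences are log2 fold changes of CD301b minus SIRPa ± SE from edgeR's quasi-likelihood fit. In bulk RNA, a smaller share of cells of a type and less RNA per cell cannot be told apart. At an adjusted p under 0.05, 429 genes (2.95% of those tested) were higher in CD301b and 472 (3.25%) were lower, 901 (6.2%) in all. Of these, 132 (0.908%) and 198 (1.36%) differed by at least 2-fold. The median difference over all tested genes was 0.01. Groups did not overlap for 426 of the 429 higher and 471 of the 472 lower genes, against 22.7% of all tested genes. A lack of overlap given for a called gene below therefore adds little to its call, and genes named by rank were chosen to have it. The lower side reached further down in level: 59 of the lower genes had a mean under 1 CPM in CD301b, and 8 of the higher genes had one in SIRPa. The share called increased with the level, from 1.05% of genes under 1 CPM to 17.2% of genes at 100 CPM or more. Counts of called genes in the lists below are to be read beside the 2.95% higher and 3.25% lower of all tested genes. The lists were not matched for level. In each of the 6 fits with 1 library left out, 186 genes (1.28%) stayed higher and 182 (1.25%) stayed lower. The count of calls was 459 without SIRPa replicate 1, 547 without SIRPa replicate 2 and 525 without SIRPa replicate 3, and 638 to 1098 without 1 CD301b library.

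**Figure D1:**
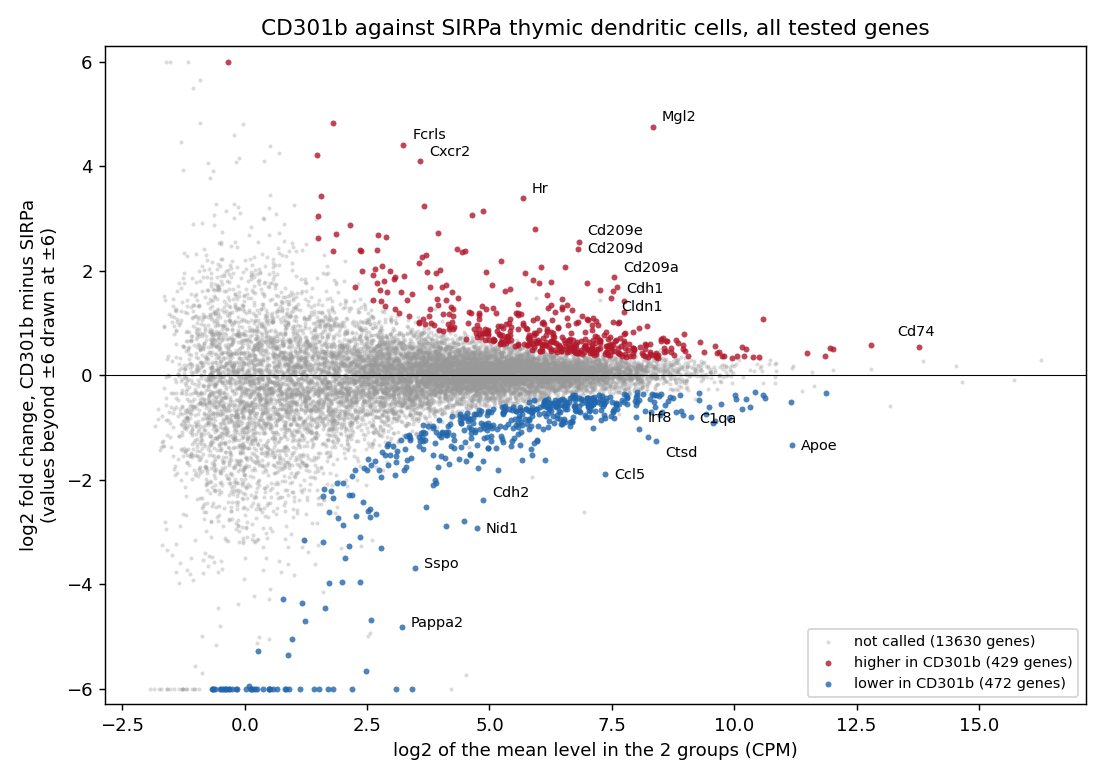
Each point is a tested gene, with the log2 of its mean level in the 2 groups in CPM on the x axis and the log2 fold change of CD301b minus SIRPa on the y axis. The 429 genes higher in CD301b are red, the 472 lower are blue, and the rest are grey; Mgl2 stands highest among abundant genes, and a band of scarce genes in CD301b lies at the lower edge, where fitted values beyond 6 are drawn at 6.

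The genes that define the sorts were read first. Beside genes chosen by rank of p-value or level, members of the lists are named below for their known roles, and these were chosen after their values were seen. Mgl2 stood at 683, 625 and 566 CPM in CD301b replicates 1, 3 and 4, at 17.7, 23.5 and 28.3 in SIRPa replicates 1 to 3, and at 1.33 to 2.34 in XCR1. Every CD301b library lay far above every SIRPa library, a 26.9-fold difference of the means (log2 4.75 ± 0.16, adjusted p = 8.13e-12). Sirpa itself stood at 705, 633 and 600 CPM in CD301b and 841, 734 and 746 in SIRPa, and did not pass edgeR's test (-0.26 ± 0.10, adjusted p = 0.14). It passed with DESeq2 (adjusted p = 0.0369). It also passed with edgeR with the replicate number as a block (adjusted p = 0.0285), where only the libraries numbered 1 and 3 bear on the difference. CD301b lay below SIRPa without overlap, at a mean of 646 against 774 CPM. Xcr1, the chemokine receptor of cDC1, stood at 0.319, 0.461 and 1.08 CPM in CD301b, 6.58, 15.6 and 6.65 in SIRPa and 663 to 854 in XCR1. It was lower in CD301b (-3.96 ± 0.59, adjusted p = 0.000412), and SIRPa replicate 2 held the highest value of the 6. The dendritic cell genes Flt3, a growth factor receptor, and Zbtb46, a transcription factor of conventional dendritic cells, were present in all 6 libraries, at 306 to 348 CPM in CD301b and 247 to 256 in SIRPa for Flt3 and at 135 to 153 and 85.3 to 110 for Zbtb46. Both were higher in CD301b (adjusted p = 0.0238 and 0.00913), with Flt3 lost without any library but CD301b replicate 4, that is, when any 1 of the other 5 was left out (0.0822 to 0.155), and Zbtb46 without SIRPa replicate 3 (0.0841).

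Mgl2 headed a group of C-type lectins. Of 35 tested lectin genes, 6 were higher in CD301b and 3 lower, with a list median of -0.05. The higher members were Mgl2, its neighbour and close paralog Clec10a, which encodes CD301a, the mannose receptor Mrc1, and Cd209a, Cd209d and Cd209e, homologues of the pathogen receptor DC-SIGN. Cd209d stood at 177, 197 and 193 CPM in CD301b and 33.4, 35.1 and 38.1 in SIRPa, a 5.32-fold difference (2.41 ± 0.12, adjusted p = 2.99e-09). Cd209e stood at 214, 192 and 175 against 28.5, 36.2 and 33.9 CPM, 5.87-fold (2.55 ± 0.13, adjusted p = 3.1e-09). Cd209a stood at 321, 295 and 264 against 68.8, 90.3 and 81.8 CPM, 3.65-fold (1.87 ± 0.12, adjusted p = 7.78e-08). All 3 genes were separated in all 6 libraries and near 0 in XCR1, at up to 1.5 CPM. They lie together on the minus strand of chromosome 8 in GRCm38, Cd209a at 3743397 to 3748984, Cd209e at 3847965 to 3854309 and Cd209d at 3871824 to 3878555. Mgl2 (chromosome 11, 70130329 to 70137550) and Clec10a (70156197 to 70170834) are also neighbours, on the plus strand. Since these genes are similar in sequence, reads may have been split within each family, and the sources do not say how multiply mapped reads were counted.

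The paralog Clec10a differed far less than Mgl2, at 67.7, 69.9 and 56.8 CPM against 31.8, 26.8 and 26.8 (1.19 ± 0.16, adjusted p = 0.000146). Mrc1 stood at 329, 252 and 212 against 103, 83.8 and 97.5 CPM (1.48 ± 0.14, adjusted p = 5.41e-06). In a fit over all 9 libraries the adjusted p of Mrc1 was 0.0983, and those of Cd209a and Cd209e were 0.0417 and 0.0285. The lower lectins were Clec4e, the Mincle receptor for microbial glycolipids, at 0.996, 1.01 and 1.22 against 6.01, 9.97 and 11.5 CPM, Ly75, the endocytic receptor DEC-205, at 122 to 130 against 192 to 195, and Clec12a, an inhibitory receptor for uric acid crystals and dead cells, at 16.2 to 26.1 against 38.7 to 45.4. Clec7a, the β-glucan receptor Dectin-1, was the most abundant lectin that did not pass (506, 518 and 494 against 387, 430 and 427 CPM, adjusted p = 0.0771), although the groups did not overlap.

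**Figure D2:**
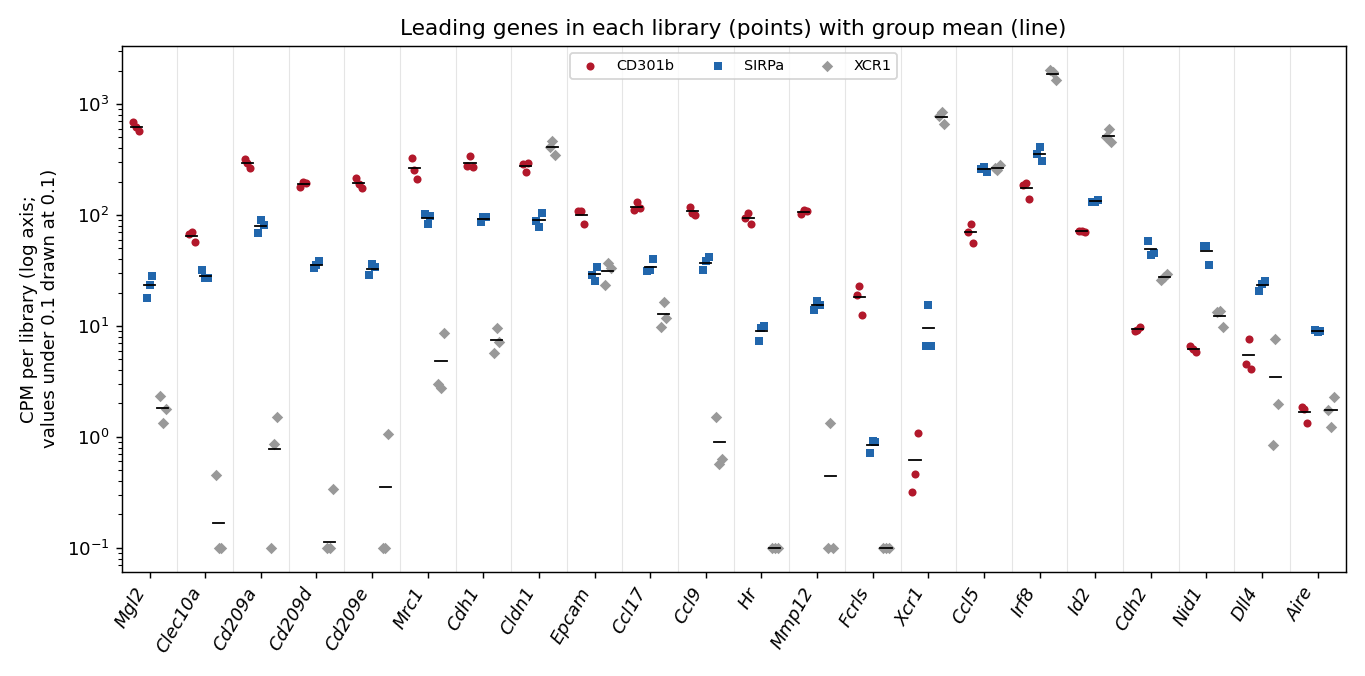
Levels in CPM on a log axis for 22 genes, with a point for each of the 3 libraries of CD301b, SIRPa and XCR1 and a line at each group's mean; values under 0.1 are drawn at 0.1. From Mgl2 to Fcrls the CD301b points lie above the SIRPa points, and from Xcr1 to Aire they lie below them.

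Targets of IL-4 and of IL-13 included many genes that were higher in CD301b. Of 40 tested members, 16 were higher in CD301b and 4 lower, and the list median was 0.51. The higher members include Mgl2, whose difference was set by the sort. With 1 library left out, 13 to 17 were higher. Mgl2, Cd209a, Cd209e, Clec10a and Mrc1 are also the higher members of the lectin list that this list shares. Mgl2, Cd209a, Clec10a, Klf4, Irf4 and Itgax are likewise shared with the higher members of the cDC2 identity list below. The counts of these lists are therefore not separate observations. In the list of IL-4 and IL-13 targets, leaving out SIRPa replicate 1 gave 1 lower member, and leaving out CD301b replicate 1 or SIRPa replicate 3 gave 2. Beside the lectins and Cdh1, the higher members included Ccl17, a chemokine that draws CCR4-bearing T cells, at 110, 131 and 116 against 31.3, 31.8 and 39.7 CPM (1.79 ± 0.14, adjusted p = 6.06e-07). Ear2, an eosinophil-type ribonuclease with close relatives in the genome, stood at 90, 85.3 and 77 against 20, 17.4 and 28.1 CPM (1.95 ± 0.18, adjusted p = 3.1e-06). Flt1, a receptor for VEGF, stood at 115, 129 and 78 against 28.9, 21.7 and 26.2 (2.07 ± 0.18, adjusted p = 2.1e-06). Retnla, the secreted protein RELMα, stood at 10.6, 7.04 and 5.87 against 0.71, 1.54 and 0.943 (2.87 ± 0.53, adjusted p = 0.00262). In each of these genes the lowest CD301b library lay above the highest SIRPa library.

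Other known IL-4 targets in the list did not pass the test or were lower. Ccl22, which binds the same receptor as Ccl17, stood at 920, 873 and 914 against 816, 867 and 831 CPM and did not pass (0.11 ± 0.08, adjusted p = 0.63). Arg1, the arginase of alternatively activated macrophages, was scarce in both groups at 0.521 to 5.27 CPM, and Socs1, a feedback inhibitor, stood at 10.3 to 16.6 against 14 to 17.6 CPM (adjusted p = 0.735 and 0.844). The 4 lower members were Atp6v0d2, a subunit of the lysosomal proton pump (6.54 to 7.49 against 20.4 to 28.4 CPM), the crosslinking enzyme Tgm2 (16.2 to 23.4 against 33 to 48.7), the chitinase-like protein Chil3 and Fcer2a, the IgE receptor CD23. Fcer2a had 2 counts over the CD301b libraries and 223 over the SIRPa libraries, a ratio of 119 of SIRPa to CD301b (exact 95% interval 32.5 to 987, counting error only). Its call was lost without SIRPa replicate 1 or 3 (adjusted p = 0.0739 and 0.0705), that of Tgm2 in the absence of CD301b replicate 1 (0.0512) or of SIRPa replicate 1 (0.106), and that of Chil3 without any library but CD301b replicate 4 (0.0572 to 0.314).

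Receptors of the pathway differed in opposite directions. Il13ra1, the chain that binds IL-13 and completes the type II receptor for IL-4, stood at 219, 167 and 178 CPM in CD301b and 91.1, 89.3 and 82.5 in SIRPa (1.10 ± 0.12, adjusted p = 2.2e-05). Il4ra, the chain shared by both receptors, stood at 102, 104 and 65.9 against 153, 132 and 129 (-0.60 ± 0.15, adjusted p = 0.0248), a call lost without any 1 of the SIRPa replicates 1 to 3 (0.157, 0.0797 and 0.0729). Il2rg, the common γ chain, stood at 140 to 163 against 144 to 163 CPM, and Stat6 at 175, 168 and 148 against 152, 145 and 146, and neither passed (adjusted p = 0.991 and 0.572). Jak2, a kinase of several cytokine receptors, was higher at 910, 965 and 1025 against 695, 781 and 765 (0.37 ± 0.09, adjusted p = 0.019), a call lost without CD301b replicate 3 or any 1 SIRPa library (0.0665 to 0.189).

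Promoters were read for TTC, any 4 bases and GAA, the spacing that STAT6 is known to prefer, on both strands (the motif is its own reverse complement) in the 250 bases before each RefSeq gene start in GRCm38.p6. Of 32851 such windows, 5.85% held a match, as did 4.76% of those of tested genes, 5.79% of those of genes higher in CD301b and 4.90% of those of lower genes. Among genes at least 2-fold apart the order was the opposite, with 4.55% for higher and 5.75% for lower genes. Among tested members of the IL-4 list, 29 genes had a window, and some had more than 1. Of their 40 windows 9 (22.5%), belonging to 8 genes, held a match, whichever way the gene differed. So did 15.1% of the windows of the interferon list described below. The 5 windows shown belong to called members of the list, 4 higher in CD301b and then Fcer2a, which was lower. The window of Itgax, another higher member, also held a match and is not shown. Capitals mark the match.
Cd209e, Ccl17, Retnla and Pdcd1lg2 come first.
Cd209e (chr8:3854287-3854536, minus strand): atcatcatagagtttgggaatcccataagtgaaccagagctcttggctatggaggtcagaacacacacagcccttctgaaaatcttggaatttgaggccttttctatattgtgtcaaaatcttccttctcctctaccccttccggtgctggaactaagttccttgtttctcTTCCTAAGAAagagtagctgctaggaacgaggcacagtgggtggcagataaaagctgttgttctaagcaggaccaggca
Ccl17 (chr8:94810203-94810452, plus strand): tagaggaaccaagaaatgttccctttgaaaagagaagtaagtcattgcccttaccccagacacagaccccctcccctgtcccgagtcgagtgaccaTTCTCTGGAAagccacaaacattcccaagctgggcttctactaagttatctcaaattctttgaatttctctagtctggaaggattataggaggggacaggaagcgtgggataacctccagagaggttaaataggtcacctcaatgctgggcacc
Retnla (chr16:48842359-48842608, plus strand): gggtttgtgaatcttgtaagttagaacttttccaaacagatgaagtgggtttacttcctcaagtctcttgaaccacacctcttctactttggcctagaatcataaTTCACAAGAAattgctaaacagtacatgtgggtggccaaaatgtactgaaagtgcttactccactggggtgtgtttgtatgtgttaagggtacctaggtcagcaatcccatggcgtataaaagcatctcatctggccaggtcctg
Pdcd1lg2 (chr19:29410669-29410918, plus strand): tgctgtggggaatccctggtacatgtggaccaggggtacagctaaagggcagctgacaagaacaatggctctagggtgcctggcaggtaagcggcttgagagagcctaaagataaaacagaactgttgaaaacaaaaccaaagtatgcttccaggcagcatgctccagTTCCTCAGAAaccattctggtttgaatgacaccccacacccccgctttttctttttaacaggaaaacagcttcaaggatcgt
Fcer2a (chr8:3690862-3691111, minus strand): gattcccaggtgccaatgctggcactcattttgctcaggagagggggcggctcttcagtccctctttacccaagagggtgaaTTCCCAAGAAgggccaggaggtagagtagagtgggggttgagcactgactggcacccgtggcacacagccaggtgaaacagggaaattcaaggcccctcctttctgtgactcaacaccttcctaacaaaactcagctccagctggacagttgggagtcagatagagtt
Pdcd1lg2, the inhibitory ligand PD-L2, was the weakest of these calls, at 48.7, 36.9 and 27.7 against 19.9, 18.5 and 26.7 CPM (0.80 ± 0.22, adjusted p = 0.0428). It passed in 1 of the 6 fits with a library left out, that without CD301b replicate 4 (0.0513 to 0.256 in the others), and its adjusted p was 0.0579 over all 9 libraries. The matches begin 79, 154, 145, 82 and 168 bases before the start in the order shown. A match is a description of the letters and shows no binding.

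Adhesion genes included cadherins that differed in opposite directions. Cdh1, E-cadherin, stood at 279, 341 and 271 CPM in CD301b against 86.2, 96.8 and 95.7 in SIRPa (1.68 ± 0.11, adjusted p = 1.47e-07). Cdh2, N-cadherin, went the other way, at 9.04, 9.26 and 9.69 against 57.7, 43.8 and 45.9 (-2.40 ± 0.20, adjusted p = 8.1e-07). Both genes were separated in all 6 libraries. Of 41 tested integrin, cadherin and related genes, 12 were higher and 8 lower, with a median of -0.02. The lower count was 4 without SIRPa replicate 1 and 5 without SIRPa replicate 3.

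Other higher members of the list were Cldn1, Epcam and Pecam1. Cldn1, a tight junction claudin, stood at 289, 245 and 294 against 87.5, 78.2 and 105 CPM (1.61 ± 0.12, adjusted p = 4.88e-07), with XCR1 higher still at 347 to 465. Epcam stood at 109, 108 and 82.1 against 28.8, 25.2 and 33.9 (1.76 ± 0.16, adjusted p = 2.73e-06), and Pecam1, CD31, at 102 to 108 against 33.7 to 48.4. Lower beside Cdh2 were Vcam1, the partner of integrin α4β1, at 223, 147 and 185 against 487, 390 and 382 CPM (-1.18 ± 0.14, adjusted p = 3.54e-05), Itga4, the α4 chain itself, at 270 to 351 against 455 to 470, and Ncam1 at up to 0.538 against 8.62 to 13.4. Itgb1, the β1 chain, did not pass (427 to 525 against 428 to 467 CPM).

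Chemokine and chemokine receptor genes were more often lower than higher. Of 39 tested, 5 were higher (3 without SIRPa replicate 1) and 11 lower (5 without SIRPa replicate 1), with a median of -0.24. In the fit of all 9 libraries 3 were higher and 7 lower. Ccl5, a chemokine that attracts T cells, stood at 70.9, 82.6 and 55.7 CPM in CD301b and at 259, 270 and 246 in SIRPa (-1.89 ± 0.13, adjusted p = 1.73e-07), with XCR1 at 254 to 280. Ccr7, the receptor that guides mature dendritic cells to the medulla and lymph nodes, stood at 164, 169 and 155 against 257, 223 and 240 (-0.56 ± 0.10, adjusted p = 0.00195). On the higher side, Ccl9 stood at 118, 105 and 101 against 31.8, 38.3 and 41.7 (1.53 ± 0.14, adjusted p = 3.22e-06).

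Chemokine receptors known from myeloid cells included 2 that were higher. Cxcr2, a receptor known from neutrophils, stood at 25, 24.4 and 18.3 CPM in CD301b and 1.47, 1.58 and 0.895 in SIRPa (4.09 ± 0.34, adjusted p = 8.33e-07). Of 13 tested granulocyte and mast cell genes, Cxcr2 was the 1 higher gene. In that list 3 were lower (1 without SIRPa replicate 1 and 1 over all 9 libraries), and the median was -2.88. Ccr2, the receptor for CCL2 on monocytes and on a share of cDC2, stood at 551, 465 and 468 against 325, 348 and 369 (0.51 ± 0.10, adjusted p = 0.00378), with an adjusted p of 0.0563 without SIRPa replicate 1 and of 0.299 over all 9 libraries. Of 18 tested monocyte genes, Ccr2 among them, 4 were higher (1 without SIRPa replicate 1 and 0 over all 9 libraries). In the monocyte list 3 were lower (1 over all 9 libraries), and the median was -0.25. Ccr6 was lower at 3.98, 6.16 and 2.45 against 13.2, 15.8 and 15.3 (-1.81 ± 0.36, adjusted p = 0.00442). Cxcr3 and Ccl1 had no count in any CD301b library, against means of 1.48 and 1.41 CPM in SIRPa, at least 34.3-fold and 32.5-fold lower with a floor of 3 counts over the group. Both of these calls were lost without any library but CD301b replicate 4 (0.0666 to 0.206 for Cxcr3 and 0.0806 to 0.213 for Ccl1), and Ccl1 had an adjusted p of 0.0933 over all 9 libraries.

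The identity lists of both conventional types were mixed. Of 27 tested cDC2 genes, 9 were higher in CD301b, the sort gene Mgl2 among them, and 2 lower (1 over all 9 libraries). In that list 15 were below 0 and the median was -0.07. Of 21 tested cDC1 genes, 8 were lower (4 without SIRPa replicate 2) and 2 higher (1 without CD301b replicate 3, SIRPa replicate 1 or SIRPa replicate 3), with a median of -0.42. The 2 tested cDC1 genes that were higher were Naaa, a lysosomal amidase, at 213, 230 and 200 CPM against 96.7, 157 and 109 (0.82 ± 0.15, adjusted p = 0.00195), and Wdfy4, a factor of cross-presentation, at 1388, 1592 and 1290 against 915, 1126 and 980 (0.50 ± 0.10, adjusted p = 0.00593). Sept3, also listed for cDC1, was not tested because its symbol had become a date. In the deposited log2 CPM values it lay 1.77 higher in CD301b than in SIRPa (7.76 against 6.0), with no overlap. The call of Wdfy4 was lost when any 1 of CD301b replicate 3, SIRPa replicate 1 or SIRPa replicate 3 was left out (0.0539 to 0.0867).

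Among 56 lineage transcription factors, 5 were higher, 6 were lower and the median was 0. Irf8, the factor required for cDC1, stood at 186, 195 and 140 CPM in CD301b, 352, 407 and 309 in SIRPa and 1645 to 2034 in XCR1 (-1.04 ± 0.13, adjusted p = 9.63e-05). Id2, an inhibitor of E proteins, stood at 72.2, 72.4 and 70.3 against 132, 132 and 136 (-0.90 ± 0.11, adjusted p = 7.88e-05), and Tcf4, an E protein, went the other way at 394, 331 and 441 against 213, 224 and 173 (0.93 ± 0.12, adjusted p = 0.000124). The cDC2 factors Irf4 (276, 256 and 224 against 160, 157 and 144) and Klf4 (150, 189 and 149 against 59, 85 and 78.6) were higher, as was Runx1 (173, 167 and 189 against 90, 96.9 and 103), with adjusted p of 0.00043, 9.66e-05 and 9.63e-05. Maf, a factor of macrophages, was lower, at 16.5 to 18.5 against 29.1 to 68.1 CPM. The groups overlapped in none of these genes. Spi1, the general myeloid factor PU.1, stood at 316 to 335 against 255 to 296 and did not pass (adjusted p = 0.159).

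Of 35 nuclear receptors and corepressors, 4 were higher and 2 lower, with a median of -0.06. Hr, a corepressor of the thyroid hormone and vitamin D receptors best known from hair follicles, was one of the sharpest differences of the whole comparison, at 93.8, 104 and 83 CPM in CD301b, 7.38, 9.53 and 10 in SIRPa and no count in XCR1 (10.4-fold, 3.38 ± 0.17, adjusted p = 3.1e-09). The retinoid receptors Rxra (183, 180 and 172 against 108, 99.4 and 109) and Rara (96.8, 102 and 102 against 53, 58.8 and 60.5) were both higher (adjusted p = 0.000199 and 0.000518). Nr4a3 was higher as well (342, 283 and 313 against 189, 173 and 167, adjusted p = 9.66e-05). Aldh1a2, the enzyme that makes retinoic acid, stood at 35.1, 20 and 29.3 against 8.23, 10.8 and 8.91 CPM (1.59 ± 0.25, adjusted p = 0.000712), and all 3 CD301b libraries lay above all SIRPa libraries. The lower receptors were Nr1h3, the oxysterol receptor LXRα (31.5 to 35.2 against 48.4 to 79.3, adjusted p = 0.0101, 0.113 without SIRPa replicate 1 and 0.584 over all 9 libraries), and Ppard (20.6 to 22.8 against 30.3 to 38.2, adjusted p = 0.0456, 0.0863 to 0.25 without any library but CD301b replicate 4 and 0.0911 over all 9 libraries).

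Genes of class II antigen presentation differed in both directions. Of 20 tested genes, 9 were higher in CD301b and 5 lower, and the median was 0.28. The higher count was 5 without SIRPa replicate 1, and in the fit of all 9 libraries 7 were higher and 2 lower. Cd74, the invariant chain that escorts class II molecules, stood at 17156, 17642 and 15229 CPM in CD301b and 11564, 11070 and 11805 in SIRPa (0.54 ± 0.09, adjusted p = 0.000872). The class II chain genes H2-Ab1 (8720, 9164 and 7516 against 5275, 5451 and 6355) and H2-Aa (4941, 4991 and 4553 against 3285, 3350 and 3678) were 1.49-fold and 1.40-fold higher (adjusted p = 0.00153 and 0.00171). H2-DMa and H2-DMb1, the chains of the peptide exchange factor, stood at 354, 349 and 339 against 186, 169 and 202 and at 217, 227 and 191 against 118, 131 and 141 (0.90 ± 0.10 and 0.70 ± 0.11, adjusted p = 2.15e-05 and 0.000649). Ciita, the master regulator of class II genes, was 564, 605 and 600 against 400, 431 and 443 (0.47 ± 0.09, adjusted p = 0.00309, and 0.0526 without SIRPa replicate 1). For each of these 6 genes the groups were separated, and differences were below 2-fold.

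The 5 lower members were H2-Eb2 and 4 proteases. H2-Eb2, a class II chain gene, stood at 80.7, 96.4 and 88.7 CPM against 114, 120 and 121 (-0.42 ± 0.12, adjusted p = 0.0407), a call lost without CD301b replicate 1 or any 1 SIRPa library (0.104 to 0.175) and over all 9 libraries (0.294). Ifi30, a lysosomal reductase that unfolds antigen, was among the higher members at 1679, 1539 and 1300 against 1138, 1195 and 1216 (0.35 ± 0.10, adjusted p = 0.0438), a call lost without any library but CD301b replicate 4 (0.155 to 0.28) and over all 9 libraries (0.0661). Ctsd, cathepsin D, stood at 207, 216 and 182 CPM in CD301b and 520, 463 and 459 in SIRPa (-1.26 ± 0.10, adjusted p = 7.5e-07). Lgmn, the asparaginyl endopeptidase that starts invariant chain cleavage, stood at 265, 232 and 227 against 422, 357 and 393 (-0.70 ± 0.10, adjusted p = 0.00033), and Ctsb, cathepsin B, at 1073, 965 and 968 against 1718, 1442 and 1462 (-0.62 ± 0.09, adjusted p = 0.000461). Ctsl, cathepsin L, was lower at 32.7 to 38.2 against 53.3 to 70.8 (adjusted p = 0.00295). Ctss, cathepsin S, the main protease for the invariant chain in dendritic cells, did not pass (3197, 2961 and 2691 against 3400, 3274 and 3544, adjusted p = 0.232). In the fit of all 9 libraries the adjusted p of Ctsd was 0.192 and that of Ctsl 0.26. Exons of Ctsd and Ctsl overlap other genes on the same strand, and those of Ctsb a gene on the opposite strand, so some of their reads are uncertain, since the strand setting of the counting is not given. Overlaps with genes on the opposite strand also hold for H2-DMa, H2-Q4, Ciita, Lamp1, Acp5, Il4ra, Il6ra, Stat6, Tgm2, Itga4, Vcam1, Ncam1, Ly75, Runx1, Maf, Dll4, Mmp12, Pi16, Nid1, Pla2g7, Pfkp, Tnfsf9, Aire, Pax5, Rpl28 and Cxcl10, and overlaps on the same strand for Il2rg, Pappa2, Sema4a, Nr1h3 and Cd74.

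Over the wider lysosome list, 17 of 49 tested genes were lower and 2 were higher, with a median of -0.26, and the summed level was 14520 to 16911 CPM in CD301b and 18545 to 20199 in SIRPa. The lower count was 11 in the fit of all 9 libraries and 10 when SIRPa replicate 1 was left out, and leaving out SIRPa replicate 2, SIRPa replicate 3 or CD301b replicate 3 gave 11. The higher count of 2 held only without CD301b replicate 4 and was 1 without any other library. Cd63, a tetraspanin of late endosomes, stood at 138, 145 and 140 against 233, 233 and 222 CPM (-0.70 ± 0.10, adjusted p = 0.000199), and Lamp1, the main lysosomal membrane protein, at 610, 571 and 526 against 905, 822 and 885 (-0.61 ± 0.09, adjusted p = 0.000378). Acp5, the tartrate-resistant acid phosphatase, stood at 114 to 130 against 194 to 226. On the higher side, Cst3, the cathepsin inhibitor cystatin C, stood at 996, 989 and 773 against 654, 712 and 694 (0.42 ± 0.10, adjusted p = 0.0198). The call of Cst3 was lost without any library but CD301b replicate 4 (0.101 to 0.167).

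**Figure D3:**
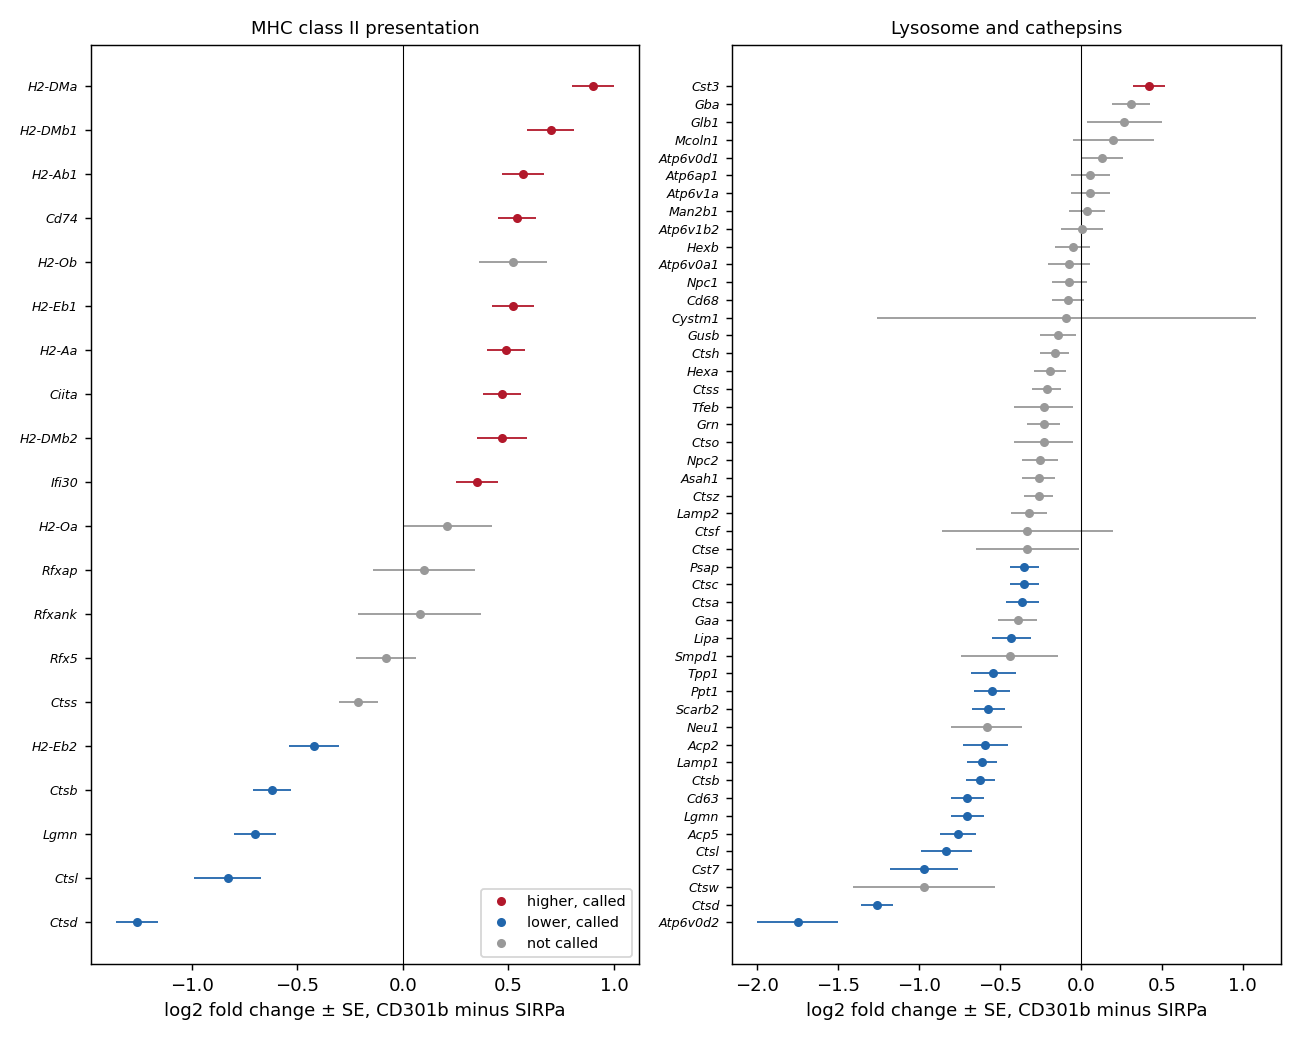
Log2 fold change of CD301b minus SIRPa with its SE for tested members of the class II presentation list (left) and the lysosome list (right), with called genes in red and blue. Cd74, H2-Ab1, H2-Aa, H2-Eb1 and the H2-DM genes lie to the right of 0, H2-Eb2 lies to the left, and Ctsd, Ctsl, Lgmn and Ctsb lie to the left in both panels.

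Of 25 tested class I genes, 4 were lower, 1 (Pdia3, a chaperone of the loading complex) was higher and 20 did not pass, with a median of -0.10. The lower count was 2 without any 1 of the SIRPa libraries, and the higher count was 2 without CD301b replicate 4 and 0 without any other library. The nonclassical H2-Q6 stood at 130, 145 and 122 against 237, 215 and 233 CPM (-0.79 ± 0.11, adjusted p = 0.000152) and H2-Q4 at 124, 142 and 93.9 against 185, 193 and 195 (-0.67 ± 0.13, adjusted p = 0.00409). H2-Q genes are near-identical to each other, so their reads may have been shared. B2m, the light chain of class I, did not pass (2646, 2233 and 2312 against 3153, 2833 and 2902, adjusted p = 0.0571).

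A regulator of class II turnover is hidden in the count table, where 24 symbols had been turned into dates and were left out. The deposited log2 CPM table lists 21 genes named March or Sept by their identifiers, and they are described here without a test. March1, a ubiquitin ligase that removes class II and CD86 from the surface of dendritic cells, had a mean of 7.41 log2 CPM in CD301b and 7.13 in SIRPa, a difference of 0.28, with no overlap. March8, a related ligase, lay lower by -0.70 (3.78 against 4.47), also with no overlap. Among septins, which are cytoskeletal GTPases, Sept3 lay 1.77 higher in CD301b (7.76 against 6.00), Sept11 0.82, Sept6 0.74 and Sept9 0.58 higher. The groups did not overlap for 6 of the 21 genes in the higher direction and 1 in the lower, where 22.7% of all tested genes did not overlap in either direction. The 21 genes were not filtered by level.

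Genes known from macrophages were mostly lower in CD301b or did not pass. Of 24 tested members, 12 were lower in CD301b and 2 higher, with a median of -0.71, and the summed level was 5501 to 6231 CPM in CD301b, 9301 to 10645 in SIRPa and 300 to 399 in XCR1. Apoe, the lipid carrier, stood at 1305, 1467 and 1168 CPM in CD301b and 3172, 3002 and 3741 in SIRPa (2.52-fold lower, -1.33 ± 0.11, adjusted p = 6.06e-07). Gpnmb, a glycoprotein of phagocytes, stood at 32.9, 28.2 and 29.1 against 76.4, 94.9 and 86.9 (-1.52 ± 0.15, adjusted p = 5.41e-06). C1qa, 1 of the chains of complement component C1q, stood at 420, 404 and 379 against 729, 664 and 719 (-0.81 ± 0.09, adjusted p = 2.34e-05), and C1qb (324 to 400 against 587 to 605) and C1qc (326 to 359 against 483 to 599) were lower as well. The highest CD301b library lay below the lowest SIRPa library in all 5 genes.

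Other lower members were Vcam1, Maf, the lysozyme Lyz2, the uptake receptors Mertk and Axl, and the haem oxygenase Hmox1. The call of Axl was lost without SIRPa replicate 1 (adjusted p = 0.0599) and that of Hmox1 without any library but CD301b replicate 4 (0.08 to 0.195). Not every macrophage gene was lower. Timd4, which binds phosphatidylserine exposed by dying cells, stood at 71.9, 47 and 62.5 CPM in CD301b against 25.5, 21 and 12.9 in SIRPa and was higher (1.61 ± 0.23, adjusted p = 0.000233), as was Mrc1. Adgre1, which encodes F4/80, stood at 116, 118 and 87.5 against 144, 105 and 160, Fcgr1, the receptor CD64, at 30.5, 25.8 and 36 against 54.2, 39.7 and 47.8, Cd68 at 217 to 229 against 223 to 250, and Cd163 at 12.1 to 14 against 5.09 to 10.6, and none of these passed (adjusted p = 0.25, 0.0511, 0.814 and 0.142). Spic, a factor of red pulp macrophages, stood at 6.31 to 12.1 against 13.3 to 16 (adjusted p = 0.21), Marco and Cd5l were at most 3.78 and 2.83 CPM, and Sall1 had no count. In the fit of all 9 libraries 4 members were lower and 1 was higher, with adjusted p of 0.187 for Apoe, 0.229 for Gpnmb, 0.698 for C1qa, 0.58 for C1qb, 0.393 for C1qc, 0.341 for Lyz2 and 0.733 for Mertk. The fit of 6 libraries was made the main one with results of the wider fit known, in which the spread of the XCR1 libraries counts as well. The part of other myeloid cells in the sorts in these differences was not tested.

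**Figure D4:**
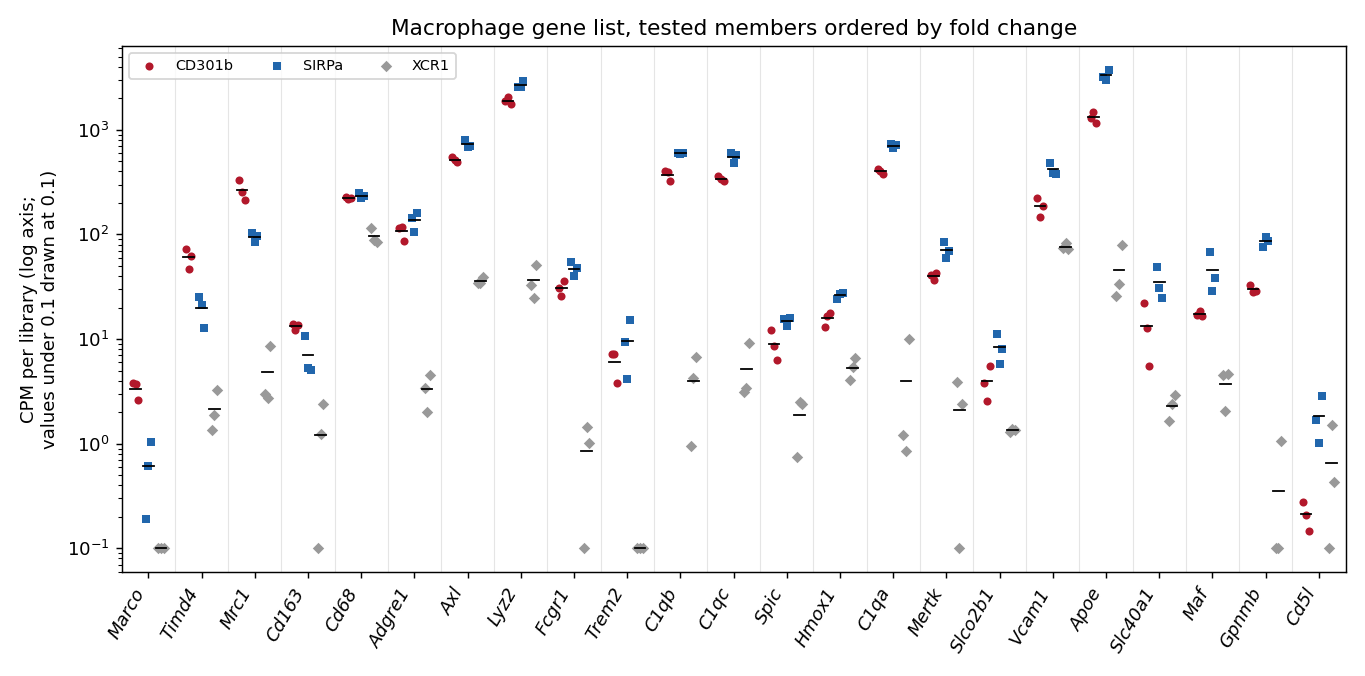
Levels in CPM on a log axis of tested macrophage genes in each library, ordered from those highest in CD301b relative to SIRPa on the left to the lowest on the right; lines are group means and values under 0.1 are drawn at 0.1. The summed level of the whole list is 5501 to 6231 CPM in CD301b and 9301 to 10645 in SIRPa, while Marco, Timd4, Mrc1 and Cd163 lie higher in CD301b.

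Complement, coagulation and uptake genes differed in both directions. Of 36 complement and coagulation genes, 6 were higher (3 without SIRPa replicate 2 or 3) and 6 lower (1 in the fit of all 9 libraries), with a median of -0.57. C3 was lower at 1016, 904 and 731 against 1578, 1179 and 1412 CPM (-0.65 ± 0.12, adjusted p = 0.00277, and 0.667 over all 9 libraries). Of 37 uptake and scavenger genes, 6 were higher (3 without SIRPa replicate 2 or 3) and 8 lower (4 without SIRPa replicate 1, 5 without SIRPa replicate 3, 2 over all 9 libraries). Lrp1, a broad scavenger receptor, stood at 267, 222 and 210 against 173, 139 and 131 (0.66 ± 0.13, adjusted p = 0.00309), and Mertk at 41.2, 36.5 and 42.7 against 85.6, 60 and 69.3 (-0.84 ± 0.16, adjusted p = 0.00286, and 0.733 over all 9 libraries).

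Genes known from mature, migrating dendritic cells were mostly lower in CD301b or did not pass. Of 45 tested genes, 17 were lower (11 without SIRPa replicate 1) and 2 higher, Ccl17 and Pdcd1lg2, with a median of -0.33 and summed levels of 8388 to 9082 CPM in CD301b and 9679 to 10128 in SIRPa. The higher count was 3 without CD301b replicate 4, 1 without any other library and 1 over all 9 libraries. Beside Ccl5 and Ccr7, Birc2, an inhibitor of apoptosis, stood at 109, 111 and 112 against 216, 195 and 191 (-0.86 ± 0.10, adjusted p = 5.56e-05), and Il15ra, which presents IL-15 to other cells, at 11.1, 8.22 and 11.3 against 36.7, 28.4 and 28.4 (-1.61 ± 0.23, adjusted p = 0.000233). Fscn1, the actin bundler of mature dendritic cells, did not pass (971, 1041 and 795 against 1082, 1012 and 1016, adjusted p = 0.54).

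Costimulatory and inhibitory ligands differed in both directions. Of 37, 5 were higher and 7 lower, the lower count being 2 to 3 without CD301b replicate 3 or any 1 SIRPa library. Tnfsf9, the ligand 4-1BBL, stood at 17.4, 16.6 and 23.6 against 3.74, 4.35 and 4.95 CPM (2.14 ± 0.29, adjusted p = 0.000183). Cd200 and its receptor Cd200r1, an inhibitory pair, went opposite ways, Cd200 at 16.7, 15 and 21.7 against 40.7, 44.6 and 38.4 (-1.21 ± 0.20, adjusted p = 0.000809) and Cd200r1 at 72.1, 65.8 and 68.6 against 23.8, 31.1 and 25 (1.37 ± 0.16, adjusted p = 3.41e-05). Lgals1, galectin-1, stood at 306, 319 and 284 against 114, 126 and 150 (1.21 ± 0.11, adjusted p = 3.92e-06). Of the classical ligands, Cd80 was lower (28.8, 19.2 and 26.4 against 39.3, 44.7 and 36.8, adjusted p = 0.0366, and 0.0875 to 0.184 without CD301b replicate 3 or any 1 SIRPa library), Cd86 did not pass (85.9 to 108 against 100 to 126, adjusted p = 0.299), and neither did Cd40 (118 to 132 against 110 to 127, adjusted p = 0.84).

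Of 54 tested interleukin and receptor genes, 6 were higher (3 without SIRPa replicate 3) and 11 lower (5 without SIRPa replicate 1, 7 without SIRPa replicate 2, 6 without SIRPa replicate 3), with a median of -0.16. Il6st, the shared signalling chain gp130, stood at 454, 412 and 469 CPM in CD301b against 261, 260 and 306 in SIRPa (0.69 ± 0.10, adjusted p = 0.000298). Lifr stood at 121, 90.7 and 126 against 72.8, 77.6 and 61.5 (adjusted p = 0.00811, and 0.0747 without SIRPa replicate 3), and Il6ra at 150, 186 and 178 against 112, 127 and 127 (adjusted p = 0.0149, and 0.0564 to 0.12 without CD301b replicate 3 or any 1 SIRPa library). Il1r1, the IL-1 receptor, stood at 27.6, 44 and 31.4 against 15.5, 13.1 and 16.5 (1.19 ± 0.22, adjusted p = 0.00254, and 0.407 over all 9 libraries). Lower were Il21r, at 58.4, 54 and 53.8 against 105, 105 and 102 (-0.91 ± 0.12, adjusted p = 0.000143), and Il9r, at 6.37, 9.85 and 6.07 against 19.4, 18.2 and 26.3 (-1.52 ± 0.28, adjusted p = 0.00257).

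Interferon-response genes were lower where they differed. Of 57 tested, 12 were lower and none was higher with edgeR (3 at an unadjusted p under 0.05, and 0 with DESeq2 or limma-voom), with a median of -0.24 and summed levels of 5969 to 6243 CPM in CD301b and 7216 to 8093 in SIRPa. The lower count was 5 without SIRPa replicate 1, 6 without SIRPa replicate 3, 7 without CD301b replicate 3 and 8 over all 9 libraries. Lgals3bp, a secreted glycoprotein, stood at 558, 566 and 515 against 1142, 927 and 947 CPM (-0.88 ± 0.10, adjusted p = 2.5e-05). The interferon-induced chemokine Cxcl10, counted in the chemokine list, stood at 25.2, 14.5 and 20.8 against 52.5, 34.9 and 38.7 (-1.06 ± 0.22, adjusted p = 0.00724, 0.0735 without SIRPa replicate 1 and 0.074 over all 9 libraries).

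The letters GAAA, any 2 bases and GAAA, on either strand, as in the interferon-stimulated response element, were searched in the same windows. They occurred in 2.98% of all windows, in 2.94% of those of tested genes, in 2.08% of those of genes higher in CD301b and in 6.61% of those of lower genes. Among genes at least 2-fold apart the shares were 3.79% for higher and 3.45% for lower genes, so the difference between the directions was not kept there. The motif occurred in 41.5% of the windows of the interferon list. The Cxcl10 window is shown as an example with its match, 213 bases before the start, in capitals.
Cxcl10 (chr5:92348890-92349139, minus strand): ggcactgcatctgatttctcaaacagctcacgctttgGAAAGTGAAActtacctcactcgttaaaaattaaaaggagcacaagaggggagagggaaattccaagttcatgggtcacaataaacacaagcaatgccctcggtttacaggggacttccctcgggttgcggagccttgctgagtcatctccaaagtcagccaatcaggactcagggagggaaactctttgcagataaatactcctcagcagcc
The E-box letters CACGTG were the only other motif searched, and occurred in 8.21% of windows of tested genes, 7.18% of those of higher genes and 5.33% of those of lower genes (4.55% and 5.75% among genes at least 2-fold apart).

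Of 42 tested pattern recognition receptors, 9 were lower, 2 were higher and 31 did not pass, with a median of -0.13. The higher count was 0 over all 9 libraries and also when SIRPa replicate 1 was left out, and 1 when CD301b replicate 3 or SIRPa replicate 2 was. Tlr7, a sensor of single-stranded RNA, stood at 31.4, 29.5 and 29.7 against 69.1, 65.9 and 62.7 CPM (-1.13 ± 0.15, adjusted p = 0.000106, and 0.737 over all 9 libraries). Tlr12, a sensor of profilin from parasites, stood at 17, 21.8 and 18.6 against 52.9, 41.5 and 44.1 (-1.27 ± 0.18, adjusted p = 0.000288), and Unc93b1, which carries such receptors to endosomes, at 299, 277 and 227 against 461, 443 and 451 (-0.76 ± 0.11, adjusted p = 0.000212). Tlr5, the flagellin receptor, was higher at 22.8, 15.9 and 28.1 against 5.30, 9.36 and 11.5 (1.35 ± 0.31, adjusted p = 0.0114, 0.0691 without SIRPa replicate 1 and 0.176 over all 9 libraries). The groups were separated in each of these 4 genes.

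Notch, Wnt and TGF-β signalling genes differed in single members. Dll4, a Notch ligand, stood at 4.58, 7.63 and 4.06 CPM in CD301b and 20.7, 23.7 and 25.4 in SIRPa (-2.10 ± 0.29, adjusted p = 0.000192, and 0.0801 over all 9 libraries). Dtx4, a regulator of Notch signals, stood at 12.5, 11.7 and 13.5 against 45, 27.7 and 35.4 (-1.52 ± 0.22, adjusted p = 0.000272). These and Tcf7l2, a mediator of Wnt signals, were the 3 lower of 40 tested Notch and Wnt genes (5 without CD301b replicate 4 or SIRPa replicate 2), none was higher with edgeR (1 at an unadjusted p under 0.05, and 0 with DESeq2 or limma-voom), and the median was -0.16. The share called in this list, 7.5%, was near the 6.2% of all tested genes. The call of Tcf7l2 was lost without SIRPa replicate 1 (0.0969). Tgfbr2 and Tgfbr1, the receptors for TGF-β, were lower at 126, 122 and 126 against 192, 175 and 185 and at 370, 303 and 332 against 522, 459 and 426 (adjusted p = 0.00211 and 0.00852, with 0.0879 for Tgfbr1 without SIRPa replicate 1). Aire, the factor that drives the display of tissue antigens in medullary epithelium, was measured at 1.87, 1.80 and 1.32 against 9.23, 8.79 and 8.95 (-2.43 ± 0.43, adjusted p = 0.00195), with XCR1 at 1.24 to 2.27. Semaphorin genes went both ways, with Sema4a higher at 245, 245 and 217 against 136, 150 and 155 and Sema7a lower at 43.8, 31.1 and 36.4 against 91.7, 94.5 and 79.1 (adjusted p = 0.000462 and 6.89e-05).

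Receptors coupled to G proteins showed a pair of thrombin-type receptors among the higher genes. F2rl2, the protease-activated receptor PAR3, stood at 32.1, 40.1 and 41.3 CPM in CD301b, 8.66, 5.54 and 7.59 in SIRPa and 37.4 to 50.7 in XCR1 (2.38 ± 0.23, adjusted p = 6.71e-06), and F2r, PAR1, at 23.3, 23.2 and 27.9 against 10.9, 11.7 and 10.7 (1.16 ± 0.22, adjusted p = 0.00345). Ptgir, the prostacyclin receptor, stood at 34.2, 29.2 and 38.9 against 4.26, 4.31 and 10.7 (2.41 ± 0.32, adjusted p = 0.000143). Adora2a, the adenosine receptor, was lower at 20.8, 19.8 and 17.1 against 58, 54.3 and 39.8 (-1.40 ± 0.19, adjusted p = 0.000152). The list held 8 higher genes (4 when SIRPa replicate 1 was left out, and 5 when SIRPa replicate 2, CD301b replicate 1 or CD301b replicate 3 was) and 6 lower (2 over all 9 libraries) of 70 tested.

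Secreted and matrix genes ranked among the largest differences. Mmp12, the macrophage elastase, stood at 102, 110 and 109 CPM in CD301b against 13.9, 16.9 and 15.4 in SIRPa (2.80 ± 0.15, adjusted p = 3.1e-09, and 0.0579 over all 9 libraries). Pi16, a peptidase inhibitor, stood at 48.7, 36.8 and 47.9 against 5.87, 6.02 and 4.05 (3.06 ± 0.23, adjusted p = 4.74e-07). Lower were Nid1, the basement membrane protein nidogen, at 6.61, 6.20 and 5.82 against 53, 52.9 and 35.4 (-2.92 ± 0.22, adjusted p = 4.74e-07), and Pappa2, a protease of IGF-binding proteins, at 0.398, 0.335 and 1.17 against 21.2, 9.75 and 22.7 (-4.83 ± 0.51, adjusted p = 1.57e-05). Mmp14, the membrane protease that activates Mmp2, and Mmp2 itself were both lower, at 287, 280 and 223 against 438, 375 and 391 and at 79.9, 59.6 and 64.8 against 138, 129 and 131 (adjusted p = 0.00223 and 0.000147, with 0.388 for Mmp2 over all 9 libraries). Of 48 matrix, protease and serpin genes, 6 were higher (3 over all 9 libraries) and 8 lower (5 without SIRPa replicate 1, 4 over all 9 libraries).

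Receptors of the Fc and Siglec families included Fcrls, an Fc receptor-like scavenger protein, at 18.9, 22.7 and 12.6 CPM against 0.71, 0.923 and 0.895 (4.41 ± 0.38, adjusted p = 1.83e-06), and Fcgrt, the neonatal Fc receptor, at 146, 147 and 90.1 against 46.8, 48.3 and 59.2 (1.31 ± 0.17, adjusted p = 0.000124). In metabolism, Slc2a3, the glucose transporter GLUT3, stood at 69.7, 71.5 and 54.8 against 20.6, 19.1 and 22.8 (1.65 ± 0.17, adjusted p = 1.05e-05), and Pfkp, a glycolytic phosphofructokinase, at 159, 176 and 191 against 82.8, 89.6 and 82.2 (1.05 ± 0.11, adjusted p = 1.95e-05). Both lay apart in all 6 libraries, while 28 of 33 tested glycolysis and hypoxia genes did not pass. In that list 4 were higher (2 without any library but CD301b replicate 4) and 1 was lower (0 without CD301b replicate 3 or any 1 SIRPa library). Pla2g7, the hydrolase of platelet-activating factor, was lower at 96.2, 88.2 and 91 against 201, 185 and 172 (-1.02 ± 0.11, adjusted p = 1.79e-05). Casp6, an executioner caspase, was higher at 84.7, 101 and 90.1 against 27.5, 23.8 and 26.5 (1.82 ± 0.14, adjusted p = 6.06e-07).

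Among highly expressed genes of other kinds, Ahnak, a large scaffold protein, stood at 2368, 2086 and 1822 CPM against 925, 1098 and 952 (1.08 ± 0.11, adjusted p = 6.52e-06), and Olfm1, a secreted olfactomedin, at 308, 366 and 263 against 100, 122 and 130 (1.41 ± 0.13, adjusted p = 3.22e-06). Both receptors of neurotrophic factors named here were higher. Gfra2, a receptor for neurturin, stood at 218, 206 and 166 against 54, 57.9 and 62.6 (1.76 ± 0.13, adjusted p = 2.58e-07), and Ngfr, the low-affinity neurotrophin receptor, chosen after its values were seen, at 153, 171 and 126 against 27.3, 39.5 and 40.5 (2.07 ± 0.16, adjusted p = 6.06e-07).

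Markers of other cells in the sorts were read as lists. Of 17 tested B cell genes, 5 were lower in CD301b (1 to 3 without 1 SIRPa library, 2 over all 9 libraries) and 12 did not pass, with a median of -1.46 and summed levels of 211 to 249 CPM in CD301b and 306 to 711 in SIRPa. Ms4a1, CD20, had no count in CD301b and stood at 6.91, 3.16 and 7.21 CPM in SIRPa, at least 133-fold lower, and Pax5 was at least 41.3-fold lower, a call lost without any 1 SIRPa library (0.0642 to 0.0986) and over all 9 libraries (0.0781). Thymocyte and T cell genes gave 1 call of 28, Cd4, which cDC2 also express (209, 195 and 240 against 315, 318 and 282, adjusted p = 0.00633, and 0.624 over all 9 libraries), and summed to 774 to 1529 and 958 to 1444 CPM. The median of that list was 0.27, with 21 members above 0 and 7 below. Tcf7, its most abundant uncalled member, stood at 99.3, 156 and 195 against 253, 206 and 292 CPM. It did not pass with edgeR (adjusted p = 0.0765) and passed with limma-voom (adjusted p = 0.00599). Gzmc, a granzyme, had no count in CD301b and 41.5, 18.8 and 3.96 CPM in SIRPa, at least 495-fold lower, with a call lost without any 1 CD301b library or SIRPa replicate 2 (0.129 to 0.219). The eosinophil genes Ccr3 and Siglecf were led by SIRPa replicate 1, at 14.9 and 11.2 CPM against 3.51 to 3.77 and 2.68 to 3.11 in the other SIRPa libraries, and their calls were lost without it (0.341 for Ccr3 and 0.593 for Siglecf). They were also lost without CD301b replicate 3 (0.0971 and 0.0668), that of Siglecf without CD301b replicate 1 (0.0823), and both over all 9 libraries (0.302 and 0.178). Elane, Mcpt8, Fcer1a and Epx, of granulocytes and mast cells, had no count in the 6 libraries. The part of these cells in the differences above was not tested.

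Of 26 genes known to respond to tissue digestion, 7 were higher in CD301b (4 without SIRPa replicate 3), 19 did not pass and none was lower with edgeR (0 at an unadjusted p under 0.05, and 0 with DESeq2 or limma-voom), with a median of 0.47 and summed levels of 5742 to 5990 CPM against 4409 to 5009. Egr2 (40.4, 42.1 and 40.8 against 17.8, 14 and 17.4), Fos (511, 531 and 345 against 276, 319 and 253) and Atf3 (86.5, 82.4 and 85.4 against 54, 45.8 and 55.6) were among them, and Egr2 and Nr4a3 also stand in other lists above. The part of the response to digestion in the differences was not tested. The call of Fos was lost without SIRPa replicate 3 (0.0514). Mitochondrially encoded genes gave no call of 10 tested with edgeR (1 at an unadjusted p under 0.05, and 0 with DESeq2 or limma-voom). Of 77 ribosomal protein genes 1 was called, Rpl28, with no call left without any library but CD301b replicate 4, where 8 were called.

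**Figure D5:**
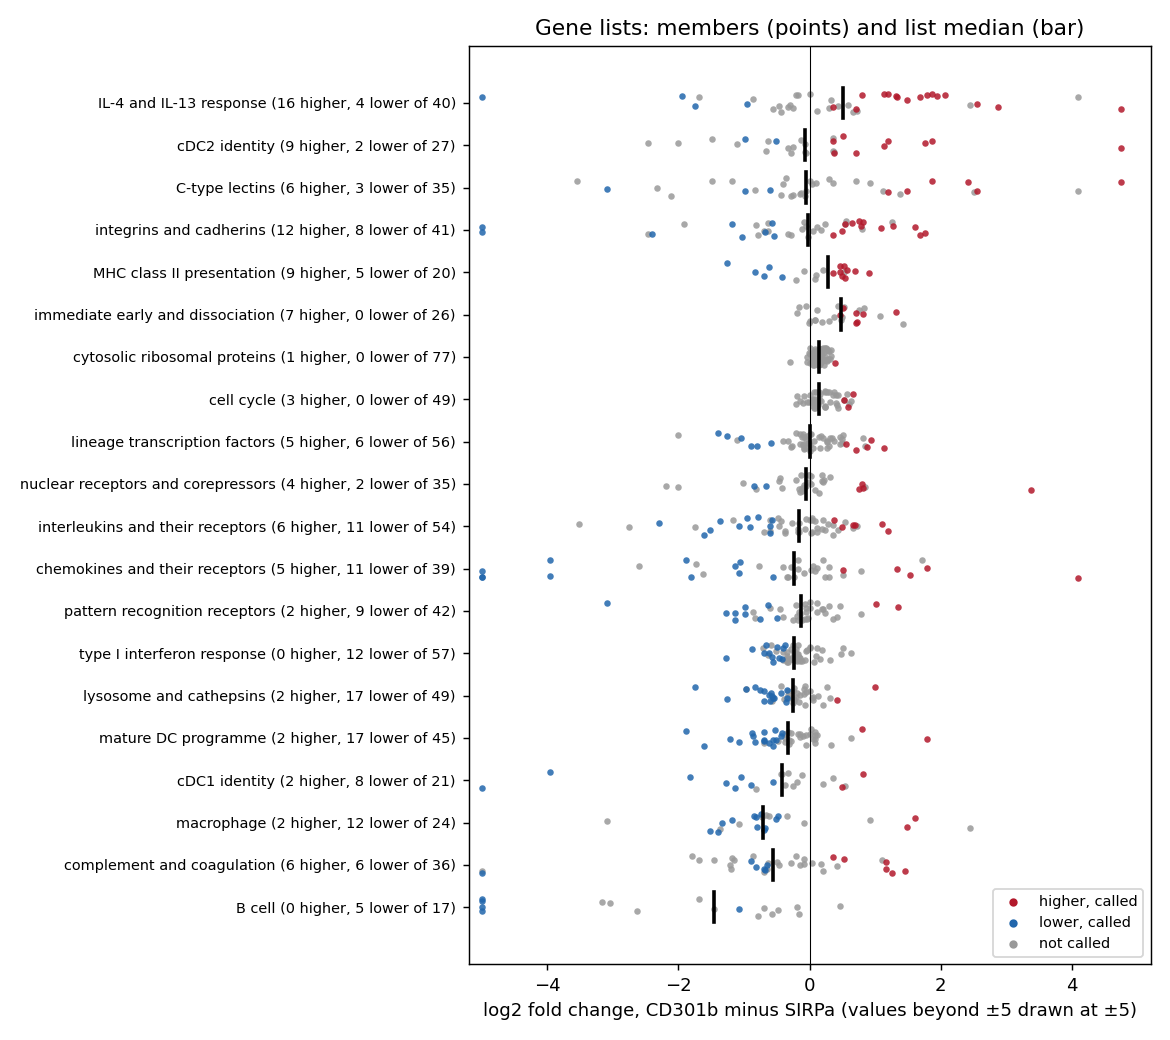
Log2 fold change of CD301b minus SIRPa for each tested member (points) of a selection of the gene lists, with called members in red and blue, a bar at each list's median, and values beyond 5 drawn at 5. The lists drawn were not chosen by size, and some larger lists are not drawn. The IL-4 and IL-13 response has 16 higher members of 40, the sort gene Mgl2 among them, and a median of 0.51. The macrophage list has 12 lower of 24 and a median of -0.71.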

How the data were processed

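RNA sequencing of sorted thymic dendritic cells was deposited as a table of read counts per gene symbol and a table of log2 CPM values. Per the submitters' processing notes, the authors' tools were HISAT2 and SAMtools, featureCounts of Subread, edgeR, Trimmomatic and FastQC, with the mm10 build. The sources used here do not give their versions, annotation or strand setting. The deposited counts were taken as raw. The 24 rows whose symbols had become dates, 0.125% to 0.187% of a library's counts, were left out, and 21 of the genes behind them were described from the log2 CPM values deposited by the authors.

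Samples were grouped by the population in their titles. Counts of 3 CD301b and 3 SIRPa libraries (20246092 to 25438864 counts) were tested with edgeR 4.0.16 in R 4.3.3 (TMM scaling, filterByExpr with a minimum count of 10, robust quasi-likelihood test, two-sided, Benjamini-Hochberg adjustment over 14531 genes, threshold 0.05). CPM values were computed from the counts on TMM sizes of all 9 libraries. Alternatives were all 9 libraries in 1 fit, RLE size factors, no filter, a minimum count of 30, no robust estimation, the replicate number as a block, DESeq2 1.42.0, limma-voom (limma 3.58.1) and leaving out each library. The main edgeR fit was tested on simulated counts in which the changed genes had a large difference of fixed size. Smaller differences and the alternatives were not simulated. A gene at 0 in a group was given a floor of 3 counts over the group, and intervals and floors cover counting error only.

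The main fit of 6 libraries, the members and the gene lists were chosen with earlier results of these data known. In an earlier fit that included XCR1, a macrophage gene with little spread in the 6 libraries had failed through the spread of an XCR1 library. Genes named were Mgl2, Sirpa, Xcr1, Cdh1, Ccl5, Il4ra, Il13ra1 and Stat6. In each direction the rule added the 10 genes of smallest adjusted p and the 10 of highest level, among those at least 2-fold apart, without overlap and called in all 6 left-out fits. From each list it added up to 3 called genes of smallest adjusted p and the most abundant uncalled gene, and not every gene the rule allows is printed: a few are not reported here. Other list members, and Ngfr, were chosen after their values were seen. Gene positions are from GENCODE M21 and promoter sequences from RefSeq, GRCm38.p6, matched by symbol for 9985 tested genes.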

Additional observations from a re-analysis of the deposited data

How the results depend on the processing

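Against 901 calls (429 higher and 472 lower in CD301b), leaving out 1 library gave 459 to 1098 calls, 231 to 509 higher and 228 to 589 lower, and 214 to 417 calls of at least 2-fold against 330. Of the 901 calls, 49.2% remained without SIRPa replicate 1. The cause was not tested. The replicate numbers 1 and 3 occur in both groups, and the deviations of same-numbered libraries correlated at 0.01 and 0.04 across genes. The labels do not tie these numbers to animals, and whether the libraries are paired was not settled. With the replicate block, 1431 genes were called, 691 higher and 740 lower, and in the replicate block over all 9 libraries 290 were lower. In the first of these fits the difference rests on the libraries numbered 1 and 3, since no other number occurs in both groups. Its count is therefore not a like alternative to the main count. Counts under all 9 libraries, RLE size factors, no filter, a minimum count of 30, no robust estimation, DESeq2 and limma-voom ran from 660 to 1225. No call changed direction under any of these settings. At 20246092 to 25438864 counts a library, 1.05% of genes under 1 CPM were called, and a lack of difference and a lack of depth were not told apart there.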
